A study of Mus musculus with 4 samples.

Results

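A set of 10 genes of the cytosolic and mitochondrial heat shock system were followed in MC38, a mouse colon cancer cell line: Hsf1, Hspa1b, Hspa8, Hsp90aa1, Hsp90ab1, Hspb1, Hsph1, Dnajb1, Hspd1 and Hspe1. They were chosen by name, and all 10 had a single row among the 36445 genes of the deposited expression table. The study compared MC38 cells given PBS, a saline buffer, with MC38 cells given 5-FU (5-fluorouracil) at 1 mM, each for 24 h, with 2 libraries per group (PBS replicates 1 and 2, 5-FU replicates 1 and 2). All 4 libraries came from this line in the same serum-containing medium, with no other agent or genetic change named in the labels, and polyadenylated RNA was sequenced. The drug is a fluorinated uracil that cells convert into nucleotides, which inhibit thymidylate synthase and become part of RNA and DNA. The labels do not say whether replicates were separate cultures, so p-values measure the spread between these libraries, which may be technical.

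Heat shock proteins are chaperones that keep other proteins folded. In the cytosol, HSP70 proteins (Hspa8, the constitutive form, and Hspa1b, the strongly inducible form) bind exposed stretches of unfolded clients, J proteins such as Dnajb1 deliver those clients and start ATP hydrolysis, and HSP110 proteins such as Hsph1 exchange the nucleotide so that the client is let go. HSP90 proteins (Hsp90aa1, inducible, and Hsp90ab1, constitutive) act later, on kinases, receptors and other signalling proteins that are almost folded. Hspb1 is a small heat shock protein that holds unfolded proteins without ATP, and Hspd1 and Hspe1 form the folding chamber of the mitochondrial matrix and its lid. Hsf1 is the transcription factor that raises many of these genes under proteotoxic stress by binding heat shock elements, which are alternating GAA and TTC triplets spaced by a pair of bases.

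The promoters of the genes whose values are compared below are shown first where a heat shock element could be found, because this is the sequence through which Hsf1 acts. RefSeq promoter windows (GRCm38.p6, 250 bases before to 50 bases after a gene's start) were matched by symbol for 6 of the 10 genes: Hspa1b, Hspb1, Hsph1, Dnajb1, Hspd1 and Hspe1. The 3-unit element TTCNNGAANNTTC, searched on both strands, was held by 3 of the 6 (Hsph1, Hspd1 and Hspe1) and by 0.603% of the 32851 windows of the same length. Hspd1 and Hspe1 are head-to-head genes on chromosome 1 that hold the same element. It has 4 alternating units at offsets -89 to -72 from the start of Hspe1 (the start base counted as 0). Hspd1 has 2 windows, and the site lies in that of its start at 55087932. The window of its start at 55088243 does not reach the site. In Hsph1 the 3 units lie at offsets 36 to 48, after the start. The next lines show each site with its flanks in 30 bases, with the GAA and TTC units in capitals. The Hspe1 line is chr1:55088053-55088082 on the plus strand and the Hsph1 line is chr5:149636287-149636316 on the minus strand.
Hspe1 and Hspd1: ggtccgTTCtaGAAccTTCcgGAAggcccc
Hsph1: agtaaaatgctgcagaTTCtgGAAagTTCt

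Hspb1 and Hspa1b held no 3-unit element but did hold the 2-unit form GAANNTTC, which reads the same on both strands, is part of any 3-unit element, and occurs in 7.86% of all windows. Hspb1 held 2 of them and Hspa1b held 1. The windows of Dnajb1 held neither the 3-unit element nor GAANNTTC nor TTCNNGAA, the other 2-unit form (8.52% of windows). Only exact units within these windows were searched, so a gene without a match is not shown to lack a heat shock element. These upstream stretches of 100 bases are chr5:135887769-135887868 on the plus strand for Hspb1 and chr17:34959289-34959388 on the minus strand for Hspa1b, again with the units in capitals. The match in Hspa1b starts at offset -104.
Hspb1: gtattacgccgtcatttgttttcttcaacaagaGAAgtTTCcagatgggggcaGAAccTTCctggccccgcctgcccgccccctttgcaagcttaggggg
Hspa1b: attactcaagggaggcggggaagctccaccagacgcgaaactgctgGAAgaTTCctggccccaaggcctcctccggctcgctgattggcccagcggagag

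Levels are FPKM (fragments per kilobase of transcript and per M mapped fragments), so they can be compared between genes. The PBS libraries had an estimated 41.3 and 41.6 M reads, and those of 5-FU had 20.8 and 20.6 M, so 5-FU values rest on fewer reads. Groups were compared with limma on log2(FPKM + 1) over the 11644 genes that reached 1 FPKM in at least 2 libraries. Of these, 22.1% were higher and 31.2% lower in 5-FU (53.3% in either direction) at a Benjamini-Hochberg adjusted p under 0.05, and the median log2 difference was -0.097. The PBS libraries lay further apart (median gap 0.27 log2) than the 5-FU libraries (0.073 log2). None of 8 epithelial markers, Epcam, Cdh1 and Krt18 among them, reached 1 FPKM in any library (summed level 0.780 to 1.84 FPKM), although the line is labelled colon cancer. Of 7 mesenchymal markers, 5 to 7 reached 1 FPKM in each library. Of 7 leukocyte markers 2 did (Lyz2 and Cd68), with summed levels of 8.28 and 22.8 FPKM in PBS and 20.8 and 19.1 FPKM in 5-FU, while Ptprc and Cd3e were at or near 0. Of 6 endothelial and erythroid markers 1 did (Hba-a1), with summed levels of 1.81 to 3.66 FPKM. The part of these markers in any result was not tested.

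After 5-FU, 3 of the heat shock genes rose: the HSP110 gene Hsph1 2.30-fold, the mitochondrial lid gene Hspe1 1.52-fold and the inducible HSP90 gene Hsp90aa1 1.32-fold. None of the 9 tested genes fell past the threshold (0 also by an unadjusted p under 0.05 in limma), and the inducible HSP70 gene Hspa1b measured 3.60 ± 1.85 FPKM in PBS and 3.07 ± 0.0329 FPKM in 5-FU (mean ± SD of n = 2 libraries, as for every mean that follows). Of the 10, 9 entered the test, and Hspb1 was too low. The 3 rises are 33.3% of the tested heat shock genes, beside 22.1% of all tested genes. The median log2 difference of the 9 was 0.32, beside -0.097 for all tested genes. In bulk RNA, fewer cells of a type and less RNA per cell cannot be told apart.

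**Figure D1:**
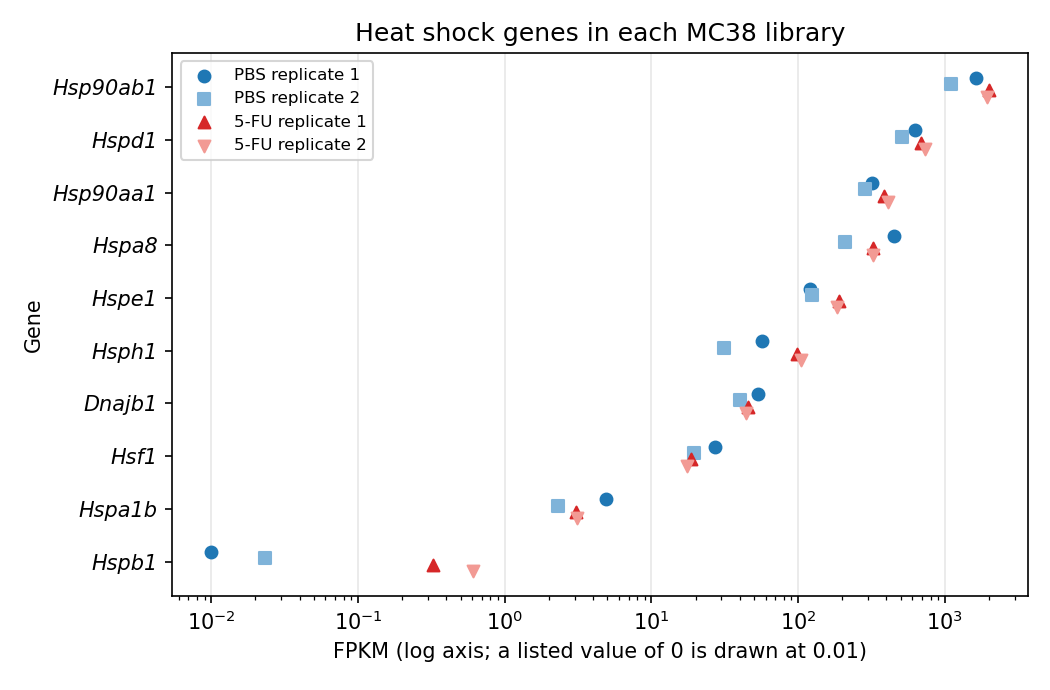
Level of each of the 10 heat shock genes in FPKM (log axis) in the 4 MC38 libraries, with 1 point per library and genes ordered by their mean. The levels run from Hsp90ab1, between 1092 and 1987 FPKM, down to Hspb1, between 0 and 0.611 FPKM, and in most rows the PBS points lie further apart than the 5-FU points.

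The regulator comes first. Hsf1 (chromosome 15, 76477422 to 76501913, GRCm38) was at 27.0 and 19.6 FPKM in PBS replicates 1 and 2 and at 18.6 and 17.4 FPKM in 5-FU replicates 1 and 2. Both 5-FU values lay below both PBS values, but PBS replicate 2 was close to them. The log2 difference was -0.34 ± 0.18 (SE), with a 95% interval of -0.82 to 0.14 and limma adjusted p = 0.174, so the difference was within the spread between replicates. It was -0.12 without PBS replicate 1 (adjusted p = 0.183) and -0.56 without PBS replicate 2 (adjusted p = 0.000848). Since Hsf1 activity is set largely by release from chaperones, trimerization and phosphorylation, its transcript level is background to the genes it controls and not a measure of its activity.

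Among the cytosolic HSP70 genes, Hspa8 (chromosome 9, 40800984 to 40810087) was the most abundant, at 453.1 and 207.0 FPKM in PBS and 326.0 and 322.9 FPKM in 5-FU. Both 5-FU libraries lay between the PBS libraries, which differed 2.19-fold from each other. Its log2 difference of 0.083 ± 0.38 SE (adjusted p = 0.871 in limma) has a 95% interval of -0.93 to 1.09, so the 4 libraries do not fix a direction. The value was 0.65 without PBS replicate 1 (adjusted p = 0.000172) and -0.48 without PBS replicate 2 (adjusted p = 0.000714). With either PBS library left out, the error comes from the close 5-FU pair alone.

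Hspa1b, the gene most sharply induced by heat in mouse cells (chromosome 17, 34956436 to 34959238), stayed low in every library. It was at 4.91 and 2.30 FPKM in PBS and at 3.04 and 3.09 FPKM in 5-FU. These levels correspond to estimates of 569 and 268 reads in PBS and of 178 and 179 reads in 5-FU. The 5-FU values again fell between the PBS values (log2 difference -0.12 ± 0.30 SE, 95% interval -0.92 to 0.68, adjusted p = 0.762 in limma). Its sign also turned with the PBS library left out, to 0.30 without replicate 1 and to -0.54 without replicate 2. Its neighbour Hspa1a, an almost identical copy, was listed at 0.0394 and 0.0313 FPKM in PBS and at 0 in both 5-FU libraries. The promoter windows of the pair differ at 4 of 300 positions, and 62.3% of the 50-base stretches of the Hspa1b transcript also occur in another gene's transcripts, all of these in Hspa1a. Reads of this pair can be split or dropped in counting, so the single values are uncertain.

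The J protein gene Dnajb1 (chromosome 8, 83608193 to 83612653), the classical inducible partner of HSP70, was at 52.9 and 40.2 FPKM in PBS and at 45.2 and 44.0 FPKM in 5-FU. The 5-FU libraries sat inside the PBS range. The log2 difference was -0.046 ± 0.16 SE, with a 95% interval of -0.47 to 0.38 and limma adjusted p = 0.825, and it was 0.15 without PBS replicate 1 (adjusted p = 0.0686) and -0.24 without PBS replicate 2 (adjusted p = 0.0125).

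Hsph1 (chromosome 5, 149614287 to 149636376), the HSP110 nucleotide exchange factor whose first exon region holds the 3-unit element shown above, moved furthest. It was at 56.8 and 31.4 FPKM in PBS and at 97.8 and 104.9 FPKM in 5-FU. Both 5-FU libraries exceeded both PBS libraries, and the PBS libraries differed 1.81-fold. The mean rose from 44.1 ± 17.9 to 101.3 ± 5.04 FPKM, a log2 difference of 1.24 ± 0.29 SE (adjusted p = 0.0237 in limma) that is larger than that of 94.98% of tested genes or equal to it. The call was lost without 5-FU replicate 1 (adjusted p = 0.108), without 5-FU replicate 2 (0.124) and when low genes were not filtered (0.0874), and the value was 0.82 without PBS replicate 2.

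Because HSP110 works on HSP70, the level of Hsph1 can be set against that of Hspa8 within each library, where the library scaling cancels. The FPKM ratio of Hsph1 to Hspa8 was 0.125 and 0.152 in PBS and 0.300 and 0.325 in 5-FU. Both 5-FU ratios were above both PBS ratios, and the PBS ratios lay closer together than the Hsph1 levels did. The ratio of Dnajb1 to Hspa8 was 0.117 and 0.194 in PBS and 0.139 and 0.136 in 5-FU, so there the groups overlapped. These 2 ratios were chosen after the values were seen, and no ratio was tested, since with 2 libraries a group the smallest p of an exact two-sided permutation test is 0.3333.

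**Figure D2:**
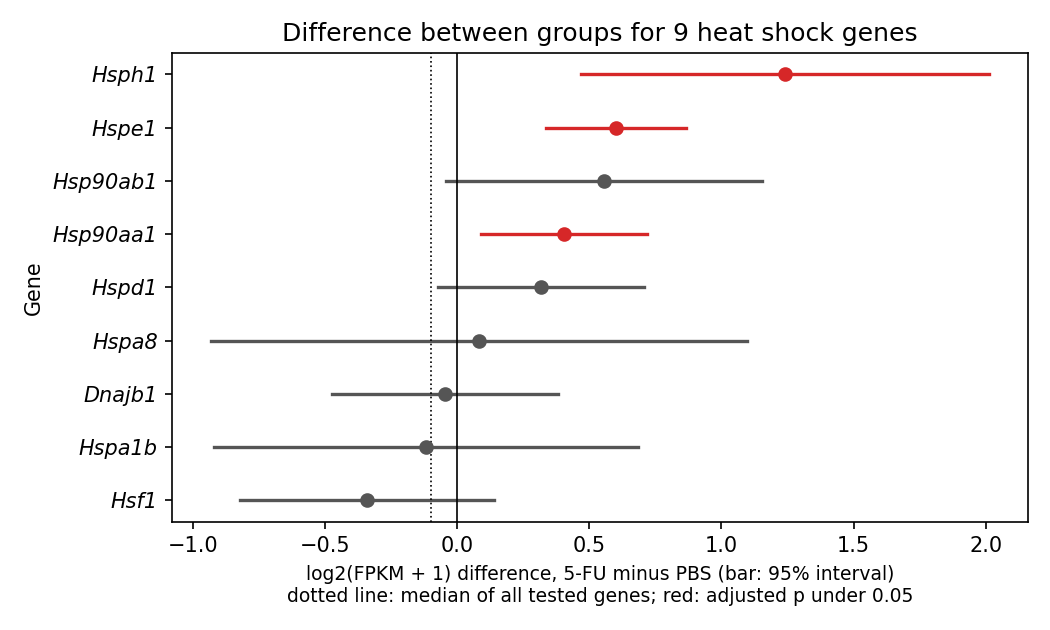
Log2(FPKM + 1) difference, 5-FU minus PBS, for the 9 tested heat shock genes, with 95% intervals from limma; red genes passed an adjusted p under 0.05 and the dotted line is the median of all tested genes. Hsph1 (1.24), Hspe1 (0.60) and Hsp90aa1 (0.41) passed, and the interval of Hspa8, -0.93 to 1.09, is the widest.

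The HSP90 pair held most of the heat shock transcript pool. Hsp90ab1 (chromosome 17, 45567775 to 45573271) was at 1632 and 1092 FPKM in PBS and at 1987 and 1945 FPKM in 5-FU, and ranked 10 and 35 among all genes of the table in PBS and 16 and 15 in 5-FU. Both 5-FU values were above both PBS values, and PBS replicate 2 was the low library. The log2 difference of 0.56 ± 0.23 SE did not pass (95% interval -0.040 to 1.15, limma adjusted p = 0.0975). It was 0.85 without PBS replicate 1 (adjusted p = 0.000116) and 0.27 without PBS replicate 2 (adjusted p = 0.0173).

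Hsp90aa1 (chromosome 12, 110690605 to 110702728) was at 317.6 and 283.8 FPKM in PBS and at 386.9 and 409.4 FPKM in 5-FU. The groups did not overlap, and the PBS gap was small for this gene (0.16 log2, where 68.3% of tested genes had a larger gap). It rose from 300.7 ± 23.9 to 398.2 ± 15.9 FPKM, a log2 difference of 0.41 ± 0.12 SE (adjusted p = 0.0430 in limma). This call was lost in 7 of 14 alternative settings, with adjusted p = 0.523 and a log2 difference of 0.12 under quantile normalization, and 0.303 and 0.387 without 5-FU replicates 1 and 2.

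The FPKM ratio of Hsp90aa1, the inducible isoform, to Hsp90ab1, the constitutive one, was 0.195 and 0.260 in PBS and 0.195 and 0.211 in 5-FU. PBS replicate 2 had the highest ratio, and PBS replicate 1 could not be told from 5-FU replicate 1. Hsp90ab1 alone made up 49.5% and 47.2% of the summed FPKM of the 10 genes in PBS and 53.1% and 51.7% in 5-FU. The 10 genes together held 0.959% and 0.645% of all FPKM in PBS and 0.960% and 0.970% in 5-FU, so PBS replicate 2 was lower than the other 3 libraries.

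The small heat shock protein gene Hspb1 (chromosome 5, 135887919 to 135889563) was nearly silent. It was listed at 0 and 0.0233 FPKM in PBS and at 0.326 and 0.611 FPKM in 5-FU, which correspond to 0, 1, 7 and 13 reads. Pooled over each group, 20 reads in 5-FU and 1 read in PBS give a rate 40.0 times as high in 5-FU, with an exact 95% interval of 6.40 to 1659 that covers counting error only. A limit of 3 reads corresponds to 0.0704 and 0.0699 FPKM in PBS and 0.140 and 0.141 FPKM in 5-FU, so both 5-FU values are above it and both PBS values are below it. The gene stayed under 1 FPKM in every library and was not tested. Other list genes under 1 FPKM in every library moved either way, with these examples chosen after the values were seen. Hspb9 was at 0.0333 and 0 FPKM in PBS and at 0.992 and 0.468 FPKM in 5-FU. Hspa1l was at 0.910 and 0.545 FPKM in PBS and at 0.194 and 0.157 FPKM in 5-FU. Epithelial markers under 1 FPKM, also picked after the fact, moved either way too. Vil1 was at 0.0477 and 0.108 FPKM in PBS and at 0.717 and 0.806 FPKM in 5-FU. Krt19 was at 0.170 and 0.505 FPKM in PBS and at 0.104 and 0.0261 FPKM in 5-FU. The share of near-silent genes that rose was not counted, so the rise is not shown to be particular to Hspb1.

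The mitochondrial pair shares a promoter region, with RefSeq starts of Hspd1 at 55087932 and 55088243 on the minus strand and of Hspe1 at 55088148 on the plus strand of chromosome 1. Hspe1, the lid (chromosome 1, 55088132 to 55091307), was at 121.4 and 125.0 FPKM in PBS and at 189.8 and 185.2 FPKM in 5-FU. The groups were clearly apart, and 91.0% of tested genes had a larger gap between the PBS libraries. It rose from 123.2 ± 2.59 to 187.5 ± 3.26 FPKM, a log2 difference of 0.60 ± 0.10 SE (adjusted p = 0.00947 in limma). The call was lost under quantile normalization (0.28 log2, adjusted p = 0.0690) and without 5-FU replicates 1 and 2 (0.163 and 0.150).

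Hspd1, the barrel (chromosome 1, 55077835 to 55088243), was at 629.0 and 514.1 FPKM in PBS and at 688.6 and 728.4 FPKM in 5-FU. Both 5-FU libraries were above both PBS libraries in FPKM. The summed FPKM of all genes was also higher in 5-FU (389882 and 387730) than in PBS (343598 and 359169). Per M of summed FPKM, Hspd1 was at 1831 and 1431 in PBS and at 1766 and 1879 in 5-FU, so the groups overlapped. The log2 difference of 0.32 ± 0.15 SE did not pass (95% interval -0.073 to 0.71, limma adjusted p = 0.133) and its size depended on the PBS library kept. It was 0.46 without PBS replicate 1 (adjusted p = 0.00131) and 0.17 without PBS replicate 2 (adjusted p = 0.0677). The ratio of Hspd1 to Hspe1 was 5.18 and 4.11 in PBS and 3.63 and 3.93 in 5-FU, with both 5-FU ratios below both PBS ratios and PBS replicate 2 near them. The ratio of Hspd1 to Hspa9, the HSP70 of the mitochondrial matrix, was 2.02 and 1.28 in PBS and 1.71 and 1.72 in 5-FU, between the PBS values.

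In all 9 tested genes the gap within PBS exceeded the gap within 5-FU, narrowly so for Hspe1. PBS replicate 1 was higher than PBS replicate 2 in 8 of the 9, with Hspe1 as the exception, beside 57.3% of all tested genes. The median difference, replicate 2 minus replicate 1, was -0.44 log2 for these genes and -0.067 for all tested genes. Hspa8 had the largest gap of the 9 (-1.13 log2), and only 2.24% of tested genes had a larger one. Hspa1b (-0.84) and Hsph1 (-0.83) followed. The 5-FU libraries differed by a median absolute 0.038 log2 over the same genes. Hspa9 went the other way in PBS, with replicate 2 higher by 0.37 log2.

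**Figure D3:**
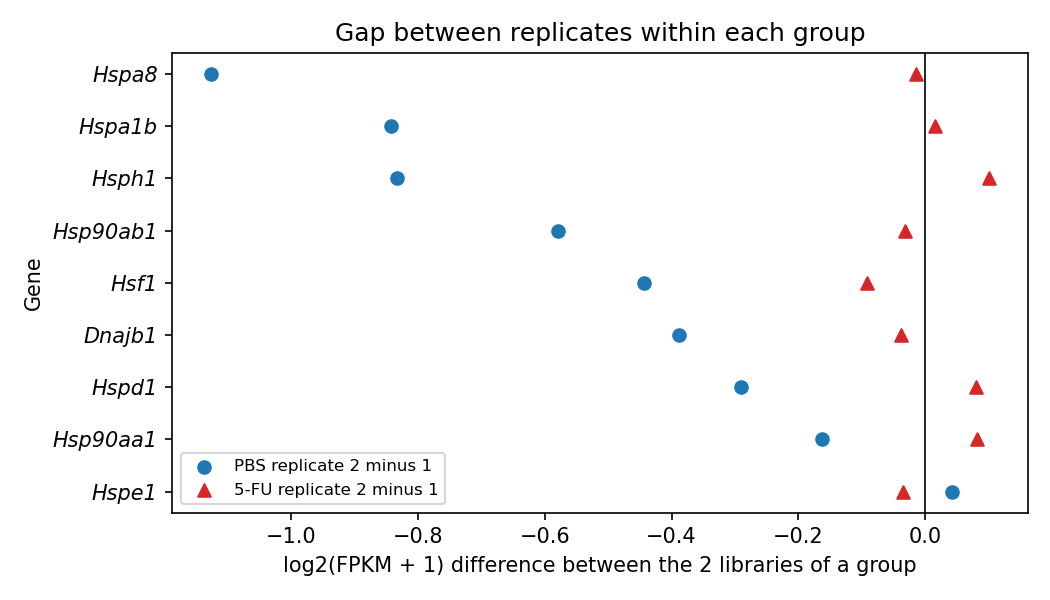
Log2(FPKM + 1) gap between the 2 libraries of each group (replicate 2 minus replicate 1) for the 9 tested heat shock genes. The PBS gaps run from -1.13 (Hspa8) to 0.043 (Hspe1), while every 5-FU gap lies between -0.092 (Hsf1) and 0.10 (Hsph1).

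Leaving out a PBS library leaves the error to the close 5-FU pair, and more genes then passed over the whole table. Counts of heat shock genes past the threshold in such fits are therefore no trait of this set, and only sizes are compared here. If PBS replicate 2 alone stood for its group, the median log2 difference of the 9 was 0.49, beside -0.063 for all tested genes. If PBS replicate 1 alone did, these medians were 0.17 and -0.14. In both fits Hsp90aa1, Hsp90ab1, Hsph1, Hspd1 and Hspe1 had a positive difference and Hsf1 a negative one. Hspa1b, Hspa8 and Dnajb1 changed sign between the fits. These signs follow from where the 5-FU values lie against the PBS range, so they are no separate check. If 5-FU replicate 2 alone was kept, the medians were 0.36 and -0.10. For 5-FU replicate 1 alone they were 0.28 and -0.095. Groups did not overlap in FPKM for 5 of the 9 with 5-FU higher (Hsp90aa1, Hsp90ab1, Hsph1, Hspd1 and Hspe1) and for 1 with 5-FU lower (Hsf1). The shares of all tested genes were 35.9% and 45.1% (81% in either direction). Of the 5, Hspd1 overlapped per M of summed FPKM, as given above.

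Several of these genes have processed copies elsewhere in the genome, and GENCODE M21 transcripts were searched for stretches shared with other genes. Of the distinct 50-base stretches of each gene, 47.5% of Hsp90aa1, 42.1% of Hspd1, 39.4% of Hspa8, 22.8% of Hspe1, 50.1% of Hspb1 and 3.44% of Hsp90ab1 occurred in transcripts of another gene, and none of Hsph1 or Hsf1. The main copies were listed far below their parents. Hspd1-ps3 was at 6.66 and 5.96 FPKM in PBS and at 8.21 and 8.69 FPKM in 5-FU. Gm12346, a copy of Hsp90aa1, was at 4.001 and 2.909 FPKM in PBS and at 5.32 and 4.86 FPKM in 5-FU. Gm8355, a copy of Hspa8, was at 6.24, 2.89, 6.54 and 6.03 FPKM in the same library order. The values of these genes are uncertain to the extent that counting dropped or split shared reads. The sources used here do not give the read length.

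The wider chaperone network moved in both directions. Of 96 further genes in 8 lists, 80 were tested, and 19 rose, 21 fell and 40 did not pass (23.75% and 26.25%, beside 22.1% and 31.2% of all tested genes). Their median log2 difference was 0.0050. After removal of mitochondrially encoded and ribosomal protein genes the balance was 14 higher and 25 lower. Without 1 of the 5-FU libraries the error comes from the PBS pair alone, which lay further apart. Those fits therefore do not show whether a call in these lists depends on a single 5-FU library. The counts of lost calls given below include those fits and cover only some of the named genes. Bag4, Sil1, Fkbp5, Pih1d1 and Hspa2 lost theirs in 3 settings each.

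The HSP70 exchange factor and partner genes split. Of 10 tested, 3 rose and 4 fell, with a median log2 difference of 0.054. Bag3, which couples HSP70 to small heat shock proteins and selective autophagy, was at 29.2 and 21.4 FPKM in PBS and at 99.8 and 88.9 FPKM in 5-FU, 3.72-fold higher on average (log2 difference 1.87 ± 0.18 SE, adjusted p = 0.00357 in limma). Its groups were far apart in comparison with the PBS gap. Bag1 and Bag6 rose 1.81-fold and 1.98-fold. Bag5, Bag4 and Sil1 fell 2.27-fold, 1.67-fold and 4.13-fold, and Sil1, an exchange factor of the endoplasmic reticulum, differed between PBS replicates (10.3 and 23.2 FPKM).

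Among 20 genes of HSP90 cochaperones, 5 rose and 4 fell (median log2 difference 0.076). Ptges3, which encodes the p23 cochaperone that holds HSP90 closed on its client, rose from 135.6 ± 26.6 to 268.9 ± 23.8 FPKM. Ruvbl1 and Rpap3, parts of the R2TP complex that works with HSP90, rose 2.01-fold and 1.93-fold. Pih1d1, the adaptor of the same complex, fell 1.95-fold. Ruvbl2, a further part of it named after its values were seen, fell 1.33-fold (adjusted p = 0.0419 in limma). The immunophilin genes Fkbp5 and Fkbp8 fell 1.63-fold and 1.40-fold. Chordc1, an HSP90-binding gene named here after its values were seen because of its promoter, was at 41.6 and 22.6 FPKM in PBS and at 72.1 and 81.9 FPKM in 5-FU (log2 difference 1.29, adjusted p = 0.0233 in limma). Like Hsph1, it had a wide gap between PBS libraries and 5-FU values above both.

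Promoter windows were matched for 76 of the 96 further genes, and 2 of them, Chordc1 and Dnajb6, held the 3-unit element. Both sites are shown for comparison with those of Hspe1 and Hsph1. Chordc1 carries 5 alternating units across its start, at chr9:18292259-18292288 on the plus strand. Dnajb6 carries 3 units at chr5:29735841-29735870 on the plus strand, and its log2 difference was 0.26 (adjusted p = 0.122 in limma). Of the 5 genes with the element, Hsph1, Hspe1 and Chordc1 rose and Hspd1 and Dnajb6 did not pass, where 22.1% of all tested genes rose. Hspe1 and Hspd1 hold the same site and are counted on different sides here. The element occurs in windows of 179 genes, and the others were not followed here. A link between the element and a rise was not tested. A match describes the letters in the window and is not evidence of binding.
Chordc1: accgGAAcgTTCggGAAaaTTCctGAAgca
Dnajb6: ctcagctccgaGAAtcTTCcgGAAcgctag

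Of 17 J protein genes of the cytosol and nucleus, 14 were tested, 4 rose and 4 fell (median log2 difference 0.13). Dnaja2, a major HSP70 partner, rose 1.90-fold (120.4 ± 11.6 to 229.2 ± 9.06 FPKM), Dnajc7 rose 1.82-fold and the histone chaperone gene Dnajc9 1.49-fold. The call of Dnajc7 was lost in 4 of 14 alternative settings and that of Dnajc9 in 7 of 14. Without PBS replicate 2 the log2 difference of Dnajc7 was 0.55 in place of 0.88, and that of Dnajc9 was 0.36 in place of 0.58. Dnajb14 fell 5.41-fold (4.87 ± 0.244 to 0.899 ± 0.0319 FPKM), Dnajc21 2.54-fold and Dnajb2 1.61-fold. Dnajb1 did not pass, as given above.

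Of the 5 tested further HSP70 and HSP110 genes, 0 rose and 2 fell (median log2 difference -0.58), and 0 were higher by an unadjusted p under 0.05 in limma. Hspa4, which is an HSP110 gene like Hsph1, was at 116.3 and 98.0 FPKM in PBS and at 57.6 and 60.4 FPKM in 5-FU, a fall of 1.82-fold (log2 difference -0.85, adjusted p = 0.00754 in limma). So the HSP110 genes Hsph1 and Hspa4 were called in opposite directions. A further HSP110 gene, Hspa4l, was at 17.5 and 29.5 FPKM in PBS and at 14.4 and 15.5 FPKM in 5-FU. Its log2 difference of -0.58 did not pass (adjusted p = 0.123 in limma). Hspa2 fell 2.14-fold from a low level, and the mitochondrial Hspa9 did not pass (311.1 and 402.7 FPKM in PBS, 403.2 and 423.2 FPKM in 5-FU, limma adjusted p = 0.296). The log2 difference of Hspa9 was 0.41 when PBS replicate 2 was left out and 0.037 when PBS replicate 1 was.

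Of 9 further small heat shock protein genes 4 were tested, and 1 rose. Hspb8, the partner of Bag3, was at 88.4 and 100.7 FPKM in PBS and at 159.4 and 158.5 FPKM in 5-FU (log2 difference 0.75, adjusted p = 0.00786 in limma). It was thus expressed at a level that Hspb1 did not approach in any library. Of the HSF genes and HSF1 regulators, 2 of 5 were tested and both rose. Hsf2, a second heat shock factor, went from 18.3 ± 0.508 to 24.8 ± 1.31 FPKM, and Hsbp1, which binds HSF1 trimers, from 108.8 ± 1.76 to 189.6 ± 4.17 FPKM. The call of Hsf2 was lost in 4 of 14 alternative settings.

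Of 16 further mitochondrial chaperone and protease genes, all were tested, 2 rose and 7 fell (12.5% and 43.75%), with a median log2 difference of -0.44. The matrix protease gene Lonp1 was at 151.8 and 207.3 FPKM in PBS and at 50.9 and 47.4 FPKM in 5-FU, a fall of 3.65-fold (log2 difference -1.83, adjusted p = 0.00365 in limma). The inner membrane protease gene Spg7 fell 2.08-fold and the intermembrane space protease gene Htra2 2.29-fold. Clpp, a matrix protease subunit, rose 1.85-fold (44.7 ± 1.78 to 82.6 ± 2.903 FPKM), and Grpel1, the exchange factor of mitochondrial HSP70, rose 1.30-fold, a call lost in 8 of 14 alternative settings. Hspe1, with its rise of 0.60 log2, lay above 15 of these 16 genes and above 9390 of all 11644 tested genes.

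A list of 23 other textbook HSF1 targets, 14 of which are also in the lists above, had 22 tested genes. Of these, 6 rose and 0 fell (27.3% and 0%), with a median log2 difference of 0.21, and 2 were lower at an unadjusted p under 0.05 in limma. Those 2 were Ppid, an HSP90 cochaperone, and Hmox1, the heme oxygenase gene, which was at 344 and 1080 FPKM in PBS and at 184.3 and 180.6 FPKM in 5-FU and was chosen for mention after its values were seen. The 3 with the smallest adjusted p were Bag3, Hspb8 and Ptges3, which are given above.

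**Figure D4:**
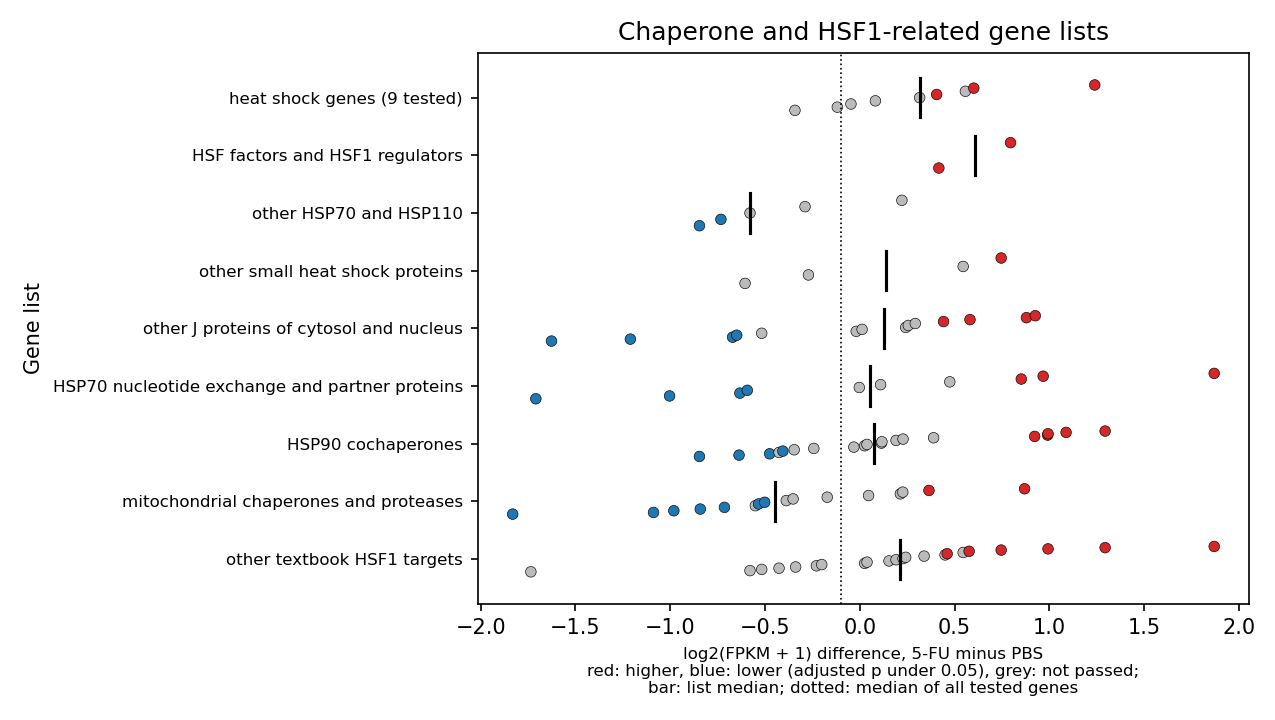
Log2(FPKM + 1) difference, 5-FU minus PBS, for each tested gene of the heat shock set and of the 8 further lists; red genes were higher and blue genes lower at an adjusted p under 0.05, grey genes did not pass, and black bars are list medians. The medians run from -0.58 (other HSP70 and HSP110) to 0.61 (HSF factors and HSF1 regulators), and the list of mitochondrial chaperones and proteases has 7 blue and 2 red genes.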

How the data were processed

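The authors deposited 1 table of FPKM values with 1 column per library, not pooled. GRCm38, STAR 2.4.1a and Picard 2.9.0 appear in the submitters' processing notes without a role. The sources used here do not give the counting program, annotation, strand setting or read length. Gene IDs were matched to GENCODE M21 on GRCm38 (36379 of 36445), which supplied coordinates and exonic lengths. Depth was estimated from the smallest step of FPKM times length. Among values under 100 reads, 63.1% to 65.1% then lay within 0.02 of a whole read, so depths and read numbers are estimates.

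The comparison of 5-FU with PBS used limma 3.58.1 in R 4.3.3 (lmFit, then trended eBayes) on log2(FPKM + 1). Genes entered where 2 or more libraries reached 1 FPKM, and tests were two-sided, with Benjamini-Hochberg adjustment over all of them and a threshold of 0.05. Log2 differences on this scale understate the change of low genes, and folds are ratios of mean FPKM. The script was tested on simulated data. The 10 genes and the lists of other heat shock and marker genes were chosen with earlier results of these data known. Named from each other list were up to 3 genes per direction with the smallest adjusted p, and Hspa9 and Hspa1a. Hspa14, 1 of the 96 further genes, was not matched in the table. Promoters are from RefSeq (GRCm38.p6). Alternatives were other pseudocounts (0.1, 0.5), filters (none, mean of at least 5 FPKM), scalings (median-ratio, quantile, without mitochondrially encoded and ribosomal protein genes), error models, the replicate number as a block and leaving out each library.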

Additional observations from a re-analysis of the deposited data

How the results depend on the processing

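With pseudocounts of 0.1 or 0.5, robust eBayes or median-ratio scaling, 3 heat shock genes were higher and 0 lower, as in the main comparison, and 2 were higher with eBayes without trend or without mitochondrial and ribosomal protein genes. With no filter on low values 1 heat shock gene was higher, and 13 of the wider list were lower. Quantile normalization also left 1 heat shock gene higher. At a mean of at least 5 FPKM, 2158 of all tested genes were lower, where fewer genes were tested. Leaving out 1 library at a time gave 0 to 7 heat shock genes higher and 0 to 4 lower, 0 to 31 of the wider list higher and 1 to 35 lower, and 259 to 4385 of all tested genes higher and 237 to 5249 lower. The low ends come from leaving out a 5-FU library, which leaves the error to the PBS pair. The high ends come from leaving out a PBS library, which leaves the error to the closer 5-FU pair. The single library of a group is then taken to vary as much as the other group does. The high ends are thus no trait of the heat shock genes. The cause of the other shifts was not tested. Log2 differences that changed sign in at least 1 setting were those of Dnajb1 (0.055 with median-ratio scaling, 0.15 and -0.24 without PBS replicates 1 and 2), Hspa1b (0.23 with quantile normalization, 0.30 and -0.54 without PBS replicates 1 and 2), Hspa8 (-0.25 with quantile normalization, -0.019 without mitochondrial and ribosomal protein genes, 0.65 and -0.48 without PBS replicates 1 and 2) and Hspa9 (-0.053 with quantile normalization). None of these genes passed in the main comparison. Quantile normalization moved the median log2 difference of all tested genes from -0.097 to 0.021 and that of the heat shock genes from 0.32 to 0.15, and removal of mitochondrial and ribosomal protein genes moved them to -0.22 and 0.21. With the replicate number as a block, 2 heat shock genes were higher and 0 lower, with 16 and 23 of the wider list and 2484 and 3553 of all tested genes. Same-numbered libraries did not deviate together (r = -0.010 across genes), so the numbers are not taken as pairs. At the estimated depths, 3 reads of Hspb1 are 0.0699 to 0.141 FPKM, so low read numbers limit the value of Hspb1.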
